A study of Mus musculus with 4 samples.

Results

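Ribosome biogenesis factors are the proteins that transcribe, cut, modify and fold ribosomal RNA and put the ribosomal subunits together without staying in the finished ribosome. A set of 43 such genes was followed in ATDC5 cells, a mouse line of teratocarcinoma origin used as a model of cartilage formation. Each gene was read from the probe set annotated to its symbol alone, taking the brightest where there were several. Measured values existed for 42 of the 43, out of 19938 genes on the array, and Noc2l was not analysed here. The set was chosen by function with the day 15 minus day 0 differences of these same arrays known, so those differences are a description, with no test.

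Each of 4 whole-transcript arrays measured the total RNA of 1 sample. The day 15 group (2 arrays) was ATDC5 cells kept for 15 days in DMEM/F12 with serum, glutamine, antibiotics, ascorbic acid and a supplement of insulin, transferrin and selenite. The day 0 group (2 arrays) was ATDC5 cells in the same medium without that supplement, in the undifferentiated state. Time in culture, the supplement and differentiation cannot be told apart, and no label tells whether the replicates were separate cultures, so a p-value here covers only how far these samples scatter, and that scatter may be technical.

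In a growing cell the nucleolus makes ribosomes on a line that starts with RNA polymerase I. The long precursor RNA is bound at once by the small subunit processome, guided by the U3 snoRNP, while snoRNPs with fibrillarin or dyskerin methylate and pseudouridylate it. After the precursor is split, separate sets of helicases, GTPases and an ATPase of the dynein-like AAA class mature the large and the small subunit on their way to the cytoplasm. The demand for ribosomes follows growth, and the transcription factor Myc, which binds E-boxes (the letters CACGTG, a palindrome that reads the same on both strands) together with Max, is known to drive many of these genes.

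The values of all 4 arrays were log2(intensity + 1) after quantile normalization, and every value below is on that scale. The limma test over all genes called 342 of 19938 (1.72%) at an adjusted p threshold of 0.05, with 260 up and 82 down at day 15. Of 8 chondrocyte markers limma called 6 higher (among them Col2a1, Acan and Hapln1) and 0 lower. Sox9 was at 12.26 and 12.75 at day 15 and at 12.19 and 11.88 at day 0. Of 7 macrophage markers, 4 were at least 1 log2 higher on the replicate 1 array than on the replicate 2 array of both days. Csf1r, the receptor for the macrophage growth factor, was at 10.19 and 6.49 at day 15 and at 10.31 and 6.71 at day 0. The summed log2 level of the 7 was 66.30 and 53.87 at day 15 and 65.57 and 52.12 at day 0, so this signal went with the replicate number. By limma 0 of the 7 were called, and 1, the lysozyme gene Lyz2, was higher at an unadjusted p below 0.05, at 11.07 and 10.38 at day 15 and at 10.19 and 8.88 at day 0. Of 7 mesenchymal progenitor markers limma called 2 lower (Twist2 and Msx2) and 0 higher. The mean difference was below 0 for 4 of the 7 and above 0 for 3, up to 1.13 log2. Markers of adipocytes, endothelial cells and muscle included no called gene by limma (0 with an unadjusted p below 0.05 among 5, 4 and 4 measured).

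A feature of these genes that had no part in choosing them is the sequence at their starts. RefSeq promoter windows of build GRCm38.p6, from 250 bases before to 50 bases after a start, were found for 36 of the 42 genes. An E-box lay in a window of 10 of the 36 (27.8%), against 9.50% of the 15614 tested genes with a window, 12.3% of those at or above the median level, where all 42 factors lie, and 7.15% of all 32851 windows. The place of the motif was a feature noticed after the windows were read. In 8 factors (22.2%) it lay after the start, in the last 50 bases of the window, which held for 1.40% of the tested genes and 1.96% of those at or above the median level. The 10 stretches are shown because they are the part of the sequence these genes share, with the E-box in capitals, 12 bases on each side where the window reaches that far, each read 5′ to 3′ on the gene's strand.
Grwd1 (chr7:45830740-45830767, minus strand): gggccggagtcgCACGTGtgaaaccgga
Ltv1 (chr10:13193092-13193121, minus strand): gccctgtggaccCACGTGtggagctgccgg
Mdn1 (chr4:32657145-32657168, plus strand): gaattccttcacCACGTGtgtgtc
Mybbp1a (chr11:72441355-72441376, plus strand): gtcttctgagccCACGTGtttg
Nop2 (chr6:125131811-125131840, plus strand): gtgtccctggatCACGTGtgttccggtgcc
Pes1 (chr11:3963965-3963994, plus strand): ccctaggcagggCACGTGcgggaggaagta
Tsr1 (chr11:74898092-74898121, plus strand): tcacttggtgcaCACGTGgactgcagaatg
Utp18 (chr11:93885769-93885798, minus strand): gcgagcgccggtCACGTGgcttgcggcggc
Utp20 (chr10:88826765-88826789, minus strand): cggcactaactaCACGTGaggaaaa
Wdr43 (chr17:71616220-71616249, plus strand): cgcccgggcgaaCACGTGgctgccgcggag
Counting from 1 at the annotated start of the window, the motif began at 3 in Pes1, 18 in Wdr43, 25 in Tsr1, 29 in Ltv1, 35 in Grwd1, 38 in Utp20, 39 in Mdn1 and 41 in Mybbp1a, and before the start at -20 in Utp18 and -60 in Nop2. Among genes with 1 window, the window's start was the start in the gene table for 74.7%. These positions and the shares after the start therefore depend on the annotation used. On the strand shown, the letters TG follow the motif in 4 of the 10 (Grwd1, Ltv1, Mdn1 and Nop2) and the letters GCT in Utp18 and Wdr43. The flanks were not compared further.

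The whole stretch of 250 bases before the start is given for Nop2, whose E-box is the farthest upstream, and for Mdn1, the gene with the largest difference, which has a further non-canonical E-box (CACGCG, searched on both strands) at -153. In both the motif is in capitals.
Nop2 (chr6:125131633-125131882, plus strand): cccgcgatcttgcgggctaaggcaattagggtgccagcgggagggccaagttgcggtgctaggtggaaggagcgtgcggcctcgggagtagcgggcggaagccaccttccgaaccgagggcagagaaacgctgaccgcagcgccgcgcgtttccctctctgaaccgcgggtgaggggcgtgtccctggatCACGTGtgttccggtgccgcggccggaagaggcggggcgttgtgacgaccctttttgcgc
Mdn1 (chr4:32656869-32657118, plus strand): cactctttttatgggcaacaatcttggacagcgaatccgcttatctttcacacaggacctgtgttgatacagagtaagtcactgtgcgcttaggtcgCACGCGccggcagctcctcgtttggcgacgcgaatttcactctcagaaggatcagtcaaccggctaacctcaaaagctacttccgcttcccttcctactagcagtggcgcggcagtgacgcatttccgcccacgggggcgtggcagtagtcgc
The non-canonical form CACGCG was in a window of 10 of the 36 factors (27.8%) and of 14.9% of tested genes (9.27% of all windows), 21.2% of those at or above the median level and 30.6% of the 121 other ribosome biogenesis genes. The form CATGTG, searched on both strands too, was in 8 (22.2%), in 12.6% of tested genes (14.2% of all windows), in 9.52% of those at or above the median level and in 9.09% of the 121. Among 121 further ribosome biogenesis genes with a window, 21 (17.4%) held an E-box and 12 (9.92%) held it after the start. Of 44 ribosomal protein genes 5 (11.4%) held one, and of 68 mitochondrial ribosomal protein genes 5 (7.35%), in none of them after the start. The share was also high in the list of Myc network and growth regulators, with 6 of 18 (33.3%), and in 3 of 9 p53 genes (33.3%). A match is a description of the letters and not a bound site.

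**Figure D1:**
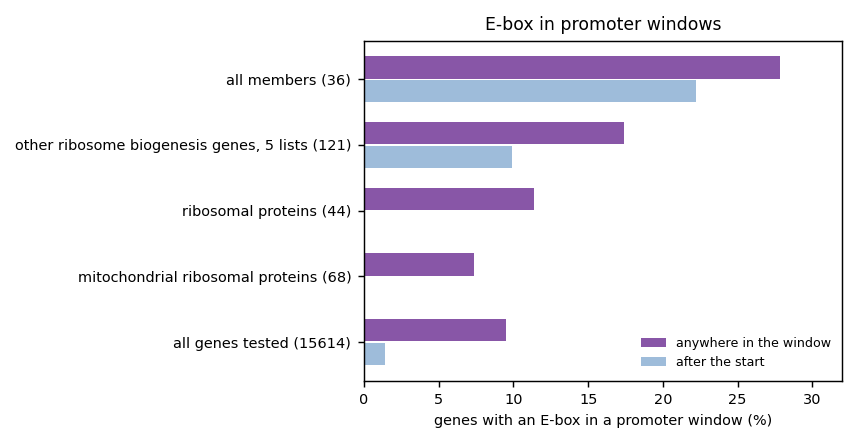
Percentage of genes with an E-box in a RefSeq promoter window, anywhere in the window (dark bars) or after the start (light bars), with the number of genes that have a window in brackets. The biogenesis factors stand at 27.8% and 22.2%, and all tested genes at 9.50% and 1.40%.

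On these arrays nearly the whole set was lower at day 15. The mean difference was below 0 for 41 of the 42 factors, against 46.8% of all genes tested and 51.2% of the genes at or above the median level. Both day 15 arrays lay below both day 0 arrays for 39 of the 42, against 17.8% of all genes and 23.5% of those at or above the median level. The median difference of the 42 was -0.51 log2, where that of all genes was 0.02. Limma's threshold over all genes was passed by 4 of the 42, all lower, where 0.411% of all genes and 0.722% of those at or above the median level passed in that direction, and 6 were at least 2-fold lower, where 1.17% of all genes were. Since the genes were picked with this contrast in view, nothing is read from these shares. In bulk RNA a lower level in each cell and fewer cells that express a gene cannot be told apart. The 4 that passed were Mdn1, Utp20, Heatr1 and Rrp12, of which Mdn1 alone passed on the deposited scaling without quantile normalization. Leaving out the replicate 2 array of either day left Mdn1 as the only one that passed, and leaving out the replicate 1 array of either day left 0.

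**Figure D2:**
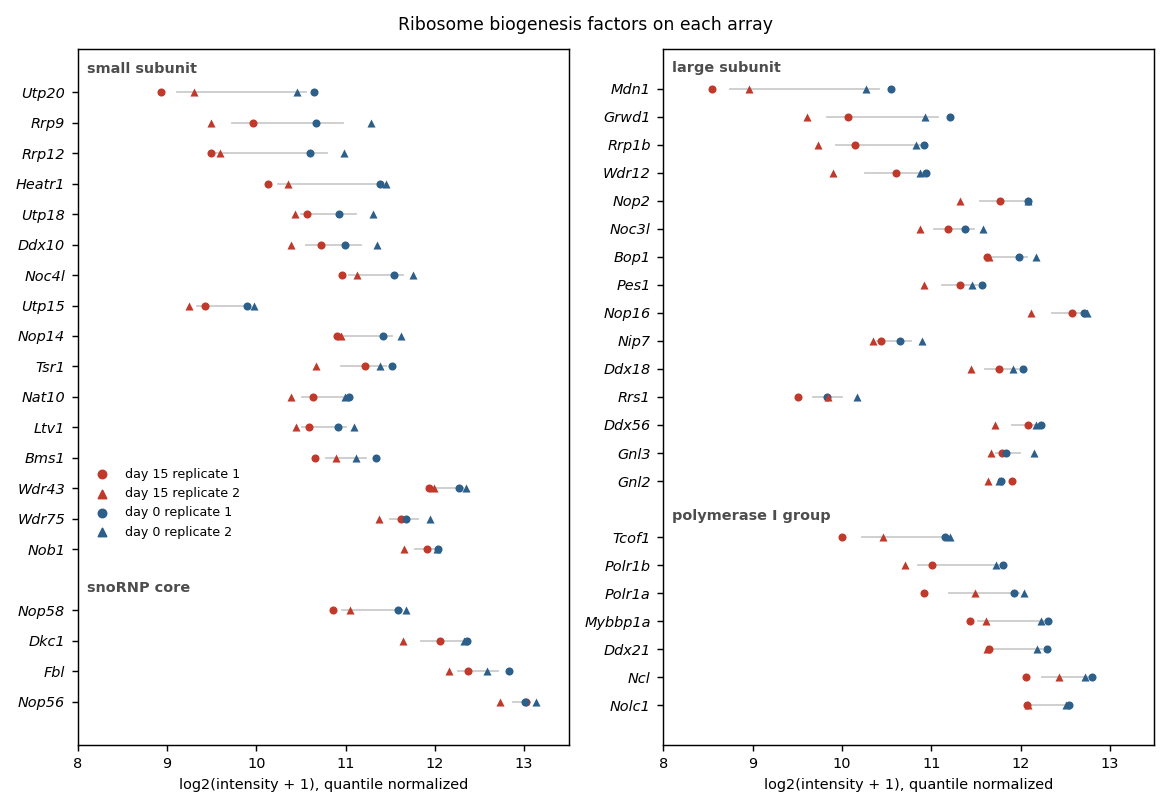
Each row is 1 biogenesis factor, each point 1 array on a log2(intensity + 1) axis (red, day 15; blue, day 0; circles, replicate 1; triangles, replicate 2), and the grey line joins the 2 day means. Red points lie left of blue points in 39 of 42 rows, the exceptions being Gnl2, Rrs1 and Nop56.

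Polymerase I and the proteins that work with it on ribosomal DNA come first in the pathway. Their median difference was -0.75 log2 over 7 genes, all of them without overlap between the days, and -0.61 with day 15 replicate 1 left out, where that of the small subunit group was -0.66. Polr1a, the largest subunit and catalytic core of RNA polymerase I, was at 10.92 and 11.49 at day 15 and at 11.92 and 12.04 at day 0. Polr1b, the second-largest subunit, was at 11.01 and 10.71 at day 15 and at 11.81 and 11.72 at day 0. Both subunits were thus lower on each day 15 array than on either day 0 array, by 1.71-fold and 1.87-fold in the mean. Tcof1, which encodes treacle, a nucleolar phosphoprotein that serves polymerase I and is mutated in Treacher Collins syndrome, was at 10.004 and 10.46 at day 15 and at 11.16 and 11.21 at day 0. Mybbp1a, a nucleolar Myb-binding protein, was at 11.43 and 11.61 at day 15 and at 12.31 and 12.23 at day 0.
Ncl, which encodes nucleolin, the abundant nucleolar protein on ribosomal DNA and early precursor RNA, averaged 12.24 ± 0.26 at day 15 and 12.76 ± 0.05 at day 0 (SD, n = 2 each). The day 0 arrays of these genes were close together, while the day 15 arrays of Polr1a, Tcof1 and Ncl were further apart, with replicate 1 the lower. The helicase gene Ddx21 differed by -0.60 log2 and Nolc1, a snoRNP chaperone related to treacle, by -0.45 log2. Both had close day 15 arrays. Ddx21 was at 11.65 and 11.63 at day 15 and at 12.30 and 12.18 at day 0. Nolc1 was at 12.07 and 12.08 at day 15 and at 12.54 and 12.51 at day 0.

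The small subunit group of 16 genes had a median difference of -0.59 log2, with no overlap between the days in any of them. Utp20, a very long HEAT-repeat protein of the small subunit processome, was at 8.94 and 9.30 at day 15 and at 10.65 and 10.46 at day 0, 2.71-fold lower at day 15. Heatr1, the HEAT-repeat protein that ties the processome to polymerase I transcription, was at 10.13 and 10.35 at day 15 and at 11.38 and 11.46 at day 0. Rrp12, a further HEAT-repeat protein, which accompanies precursor subunits out of the nucleus, was at 9.49 and 9.60 at day 15 and at 10.61 and 10.98 at day 0. The gap between the nearest arrays of the 2 days was 1.16 log2 for Utp20, 1.03 for Heatr1 and 1.01 for Rrp12, the widest of the group.
Rrp9, a protein specific to the U3 snoRNP, was at 9.96 and 9.49 at day 15 and at 10.67 and 11.28 at day 0, a difference as large as that of Rrp12 (-1.25 log2 each) with a wider spread on both days. The other 12 differed by between -0.62 and -0.25 log2. Utp18 of the UTP-B complex (-0.62), the helicase Ddx10 (-0.61), the partners Noc4l (-0.60) and Nop14 (-0.59), and Utp15 of the UTP-A complex (-0.60) stood close to each other. Wdr43 (-0.35) and Wdr75 (-0.31) differed less than these.
The GTPase Bms1 differed by -0.45 log2. Of the factors that act later or modify the RNA, Tsr1 differed by -0.51, the RNA acetyltransferase Nat10 by -0.51 and the export factor Ltv1 by -0.49 log2. Nob1, the endonuclease that makes the final cut of small subunit rRNA, was at 11.91 and 11.66 at day 15 and at 12.04 and 12.03 at day 0. Its days did not overlap, and the gap of 0.12 log2 between them was smaller than the SD of its day 15 arrays (0.18, n = 2).

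Proteins of the snoRNPs that modify ribosomal RNA were lower by a median of -0.47 log2 over 4 genes. Nop58, a scaffold of the box C/D snoRNPs, was at 10.85 and 11.05 at day 15 and at 11.59 and 11.67 at day 0. Fbl, which encodes the methyltransferase fibrillarin, was at 12.37 and 12.16 at day 15 and at 12.83 and 12.59 at day 0. Dkc1, which encodes the pseudouridine synthase dyskerin, was at 12.06 and 11.64 at day 15 and at 12.36 and 12.32 at day 0. In these 3 the days were apart. Nop56, the partner of Nop58 in the same particles, was at 13.02 and 12.73 at day 15 and at 13.00 and 13.13 at day 0, so its days overlapped and its difference of -0.19 log2 was within the spread of its arrays. The second probe set of Fbl differed by -0.64 log2, where the brightest differed by -0.44. The array was not examined for how well either tells Fbl from related copies.

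The large subunit group of 15 measured genes had a median difference of -0.39 log2 and held the gene with the largest mean difference of the set, Mdn1. The group's median was -0.60 log2 with day 15 replicate 1 left out and -0.30 with day 15 replicate 2 left out. Mdn1, which encodes midasin, the giant AAA ATPase that strips assembly factors from precursor large subunits, was at 8.55 and 8.95 at day 15 and at 10.55 and 10.27 at day 0, 3.16-fold lower at day 15. Grwd1, whose yeast homologue chaperones a large subunit protein, was at 10.06 and 9.61 at day 15 and at 11.21 and 10.93 at day 0, 2.36-fold lower. Rrp1b, a nucleolar protein of precursor large subunits, was at 10.14 and 9.73 at day 15 and at 10.92 and 10.82 at day 0. For these 3 genes the gap between the days, 1.32, 0.87 and 0.68 log2, exceeded the distance between arrays of a day.
The PeBoW complex, which acts on the precursor at the boundary of large subunit rRNA, is formed by Pes1, Bop1 and Wdr12. Wdr12 was at 10.61 and 9.90 at day 15 and at 10.94 and 10.87 at day 0, with replicate 2 lower by 0.97 log2 and replicate 1 by 0.33. Bop1 differed by -0.44 and Pes1 by -0.39 log2, both with no overlap. The rRNA methyltransferase Nop2 differed by -0.53, Noc3l by -0.45, Nop16 and Nip7 by -0.38 each, the helicases Ddx18 and Ddx56 by -0.37 and -0.30 and Rrs1, which brings in the 5S particle, by -0.32 log2. Arrays of the 2 days overlapped for Rrs1, at 9.51 and 9.85 at day 15 and at 9.83 and 10.17 at day 0. The second probe sets of Ddx18 (-0.40) and Wdr12 (-0.78) differed in the same direction as the brightest ones.
Gnl3 and Gnl2 encode nucleolar GTPases. Gnl3, which encodes nucleostemin, was at 11.79 and 11.67 at day 15 and at 11.83 and 12.16 at day 0. Gnl2 was at 11.91 and 11.63 at day 15 and at 11.78 and 11.75 at day 0, with a difference of 0.0044 log2, and was the single factor whose mean was not lower. It is named because of that value.

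The replicate numbers gave the same picture with different weights. Within replicate 1, 40 of the 42 factors were lower at day 15, with a median of -0.39 log2 and a range of -2.01 to 0.13. Within replicate 2 all 42 were lower, with a median of -0.62 and a range of -1.79 to -0.12. Both replicate numbers showed a lower value for 40 of the 42, against 28.3% of all genes. Across the 42 factors the replicate 1 and replicate 2 differences correlated with Pearson's r = 0.60, and across all 19938 genes with r = 0.65. These are descriptions, and the points of an axis share 1 pair of arrays.
The polymerase I group had its larger median within replicate 1 (-0.80 log2, against -0.55 within replicate 2), while the small subunit (-0.44 against -0.69), large subunit (-0.27 against -0.56) and snoRNP (-0.39 against -0.52) groups had it within replicate 2. On the day 15 arrays, 5 of the 7 polymerase I genes were lower in replicate 1 than in replicate 2, and 12 of the 15 large subunit genes were higher. Whether the difference between the role groups depended on the replicate was not tested. The macrophage marker signal was lower on the replicate 2 arrays of both days, and its part in these differences was not tested.

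**Figure D3:**
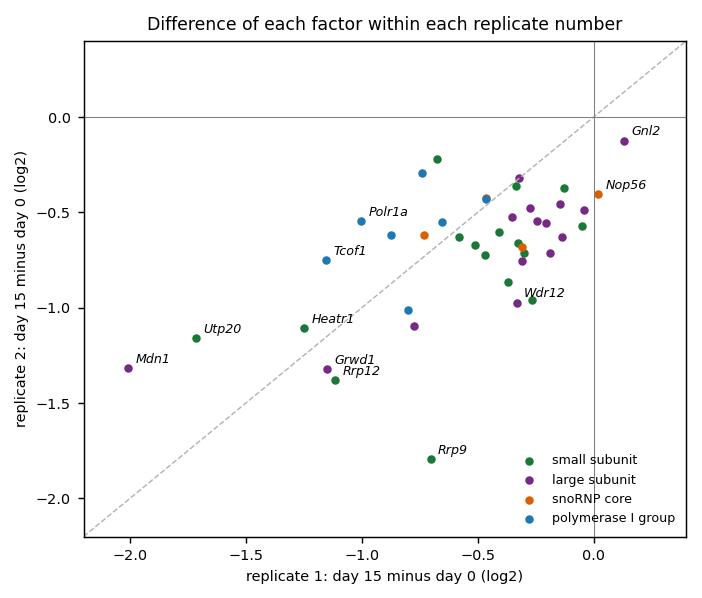
Each point is 1 biogenesis factor, with the day 15 minus day 0 difference (log2) within replicate 1 on the horizontal axis and within replicate 2 on the vertical axis, coloured by role group. Of the 42 points 40 lie below 0 on both axes, Mdn1 (-2.01 and -1.32) is farthest left and Rrp9 (-0.70 and -1.79) lowest.

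The remaining genes of the pathway were read from 5 lists of genes outside the 42. By limma over all genes 0 of 147 measured genes were called in either direction. At an unadjusted p below 0.05 by limma, 34 were lower (23.1%) and 0 higher, where 4.78% of all genes were lower and 7.38% higher. Of the genes at or above the median level, where 141 of the 147 lie, 8.01% were lower. The mean difference was below 0 for 131 of the 147 (89.1%), against 46.8% of all genes and 51.2% of those at or above the median level. Both day 15 arrays lay below both day 0 arrays for 79 (53.7%), against 17.8% and 23.5%, while 3 of the 147 lay above (22.3% of all genes did). Their median difference was -0.26 log2, -0.13 with day 15 replicate 2 left out and -0.36 with day 15 replicate 1 left out. Within replicate 1 the median was -0.11 log2 with 95 of the 147 lower, and within replicate 2 it was -0.41 log2 with 135 lower. The lists were written with earlier results of these arrays known, so the counts are no independent support.
Of 47 other small subunit factors 0 were called, 15 were lower and 0 higher at an unadjusted p below 0.05, and the median was -0.27 log2. Pwp2, a scaffold of the UTP-B complex, was at 9.54 and 9.22 at day 15 and at 10.35 and 10.55 at day 0 (-1.07 ± 0.19 log2, SE, limma adjusted p = 0.0762). Fcf1, a processome nuclease-fold protein, was at 8.27 and 8.21 at day 15 and at 8.97 and 9.62 at day 0 (limma adjusted p = 0.151). Neither passed the test, although their days did not overlap.
Among 45 other large subunit factors 0 were called, 11 were lower and 0 higher at an unadjusted p below 0.05, with a median of -0.32 log2. Urb2 was at 10.38 and 11.25 at day 15 and at 11.77 and 11.99 at day 0 (limma adjusted p = 0.23). Urb1, its partner in early large subunit assembly, was at 9.12 and 9.56 at day 15 and at 10.31 and 10.22 at day 0 (limma adjusted p = 0.132). Npm1, which encodes the abundant nucleolar chaperone nucleophosmin, was at 12.26 and 12.40 at day 15 and at 12.37 and 12.44 at day 0, a difference of -0.08 log2 within the spread of its arrays.

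The other polymerase I machinery, 18 genes, had a median of -0.28 log2 with 0 called, 3 lower and 0 higher at an unadjusted p below 0.05. Taf1d, a subunit of the promoter selectivity factor, was at 11.02 and 10.53 at day 15 and at 11.15 and 12.06 at day 0 (limma adjusted p = 0.421). The polymerase subunit gene Polr1e was at 9.82 and 9.61 at day 15 and at 10.23 and 10.56 at day 0 (limma adjusted p = 0.232). Ubtf, the upstream binding factor of ribosomal DNA, differed by -0.17 ± 0.16 log2 (SE, limma adjusted p = 0.838) and Rrn3, the factor that makes the polymerase competent to start, by -0.13 ± 0.16 (limma adjusted p = 0.897). Both initiation factors thus differed by about as much as their standard error.
In the list of 13 other snoRNP proteins and assembly factors 0 were called and 2 were lower at an unadjusted p below 0.05 (median -0.30 log2), namely the AAA ATPase Ruvbl2 (-0.50 ± 0.17, limma adjusted p = 0.307) and the H/ACA assembly factor Naf1 (-0.45 ± 0.17, limma adjusted p = 0.359). The median of this list was 0.04 log2 within replicate 1, with 6 of 13 lower, and -0.38 within replicate 2, with 11 lower. The 24 nucleases and RNase MRP or exosome genes of rRNA processing had a median of -0.19 log2 with 0 called and 3 lower at an unadjusted p below 0.05. Their median was -0.03 log2 within replicate 1, with 13 of 24 lower, and -0.32 within replicate 2, with 22 lower. Pop1, a subunit of RNase MRP, was at 8.64 and 8.24 at day 15 and at 9.49 and 9.28 at day 0, and did not pass (limma adjusted p = 0.127). The exosome nuclease Dis3 was at 10.31 and 9.87 at day 15 and at 11.01 and 11.06 at day 0, with the same adjusted p.

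**Figure D4:**
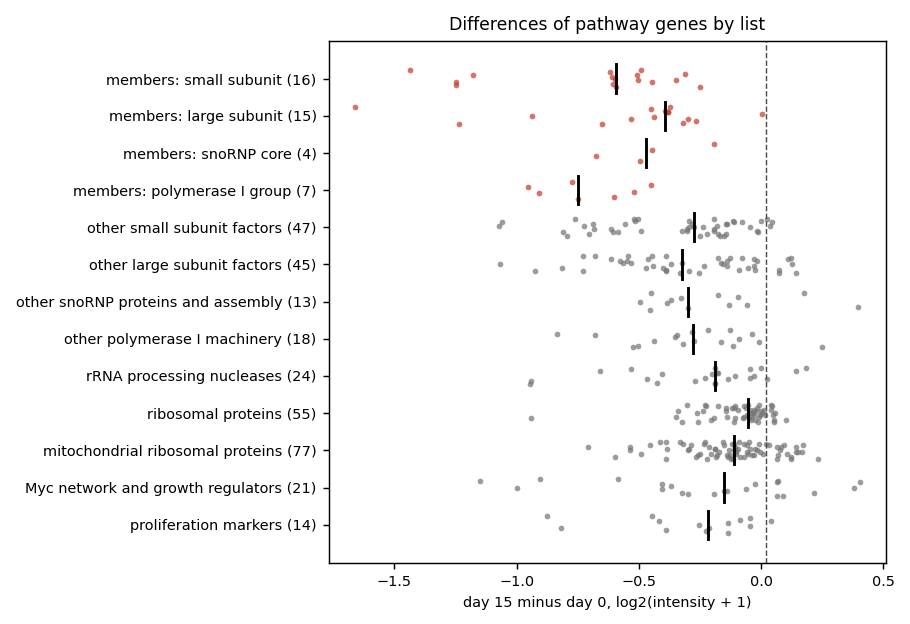
Day 15 minus day 0 difference in log2(intensity + 1) of each gene (points), by list, with the number of genes in brackets, the median of each list as a black bar and the median of all genes as a dashed line. The 4 groups of biogenesis factors (red) have medians from -0.75 to -0.39, the 5 lists of other biogenesis genes from -0.32 to -0.19, and the ribosomal proteins -0.05.

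Genes of the ribosome itself had a median difference closer to 0 than the lists of its assembly factors. The 55 ribosomal protein genes measured, of 79 listed, had a median of -0.05 log2. Of the 55, 44 (80.0%) had a mean difference below 0, against 46.8% of all genes and 51.2% of those at or above the median level. Both day 15 arrays lay below both day 0 arrays for 21 (38.2%), against 17.8% and 23.5%. By limma 0 were called, and at an unadjusted p below 0.05 there was 1 lower and 0 higher. That gene was Rpl12, at 8.97 and 8.38 at day 15 and at 9.18 and 10.06 at day 0 (limma adjusted p = 0.367). Rpl30 came next in size, at -0.35 ± 0.17 log2 (SE, limma adjusted p = 0.524). Ribosomal protein genes have many processed copies, and how well their probe sets tell them apart was not examined, so single values are uncertain. Whether this list differs from the biogenesis factors was not tested.

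Regulators of growth included the gene of the factor that binds E-boxes. Myc was at 11.38 and 12.26 at day 15 and at 12.55 and 12.90 at day 0, -0.90 ± 0.32 log2 (SE, limma adjusted p = 0.339), with no overlap between the days and an SD of 0.62 between its day 15 arrays (n = 2). The lower of its day 15 arrays was replicate 1, which was the lower for 16 of the 42 biogenesis factors and the higher for 26. The part of Myc in the lower values of the biogenesis factors was not tested. Mycn was at 8.0007 and 8.02 at day 15 and at 8.11 and 8.22 at day 0. Max, the partner of Myc, differed by 0.06 ± 0.20 log2 and its direction turned when day 15 replicate 2 (-0.04) or day 0 replicate 1 (-0.12) was left out. Mxd4, which competes with Myc for Max, was at 12.26 and 12.47 at day 15 and at 12.25 and 11.72 at day 0 (limma adjusted p = 0.65).
Odc1, the first enzyme of polyamine synthesis and a classical Myc target, was at 10.998 and 10.70 at day 15 and at 11.88 and 11.81 at day 0 (-0.998 ± 0.18 log2, SE, limma adjusted p = 0.0785). Cad, the enzyme that opens pyrimidine synthesis and another such target, was at 10.20 and 11.13 at day 15 and at 11.97 and 11.66 at day 0 (limma adjusted p = 0.227). Of the 21 genes of this list 0 were called by limma, 4 were lower and 0 higher at an unadjusted p below 0.05, and the median was -0.15 log2.

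Proliferation markers were set beside the biogenesis factors because growth and division go together. Of 14 markers 0 were called by limma, with 1 lower and 0 higher at an unadjusted p below 0.05, and their median was -0.22 log2. Both day 15 arrays lay below both day 0 arrays for 5 (35.7%), against 17.8% of all genes and 23.5% of those at or above the median level. Mki67 was at 10.48 and 11.24 at day 15 and at 12.35 and 11.11 at day 0, so its days overlapped (limma adjusted p = 0.562). Birc5 was at 9.62 and 9.45 at day 15 and at 10.68 and 10.03 at day 0 (limma adjusted p = 0.258). Top2a differed by -0.21 ± 0.27 log2 (SE, limma adjusted p = 0.899), and by 0.16 without day 0 replicate 1. Its probe sets disagree, and their mean differed by -1.20 log2. The mean difference was below 0 for 13 of the 14 markers, against 46.8% of all genes and 51.2% of those at or above the median level. Within replicate 1 the median of the markers was -0.21 log2, and Mki67 differed by -1.88 and Top2a by -0.51 log2. Within replicate 2 their median was -0.18 log2 with 12 of 14 lower, and Mki67 (0.13) and Top2a (0.08) were the other two. The part of proliferation in the lower values of the biogenesis factors was not tested.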

How the data were processed

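Total RNA of 4 ATDC5 samples was measured on biotin-labelled whole-transcript arrays, per the labels' protocols. The authors deposited 1 processed intensity per probe set and array, and the values, from 0.72 to 23103.3, are on a linear scale. How probes were background-corrected, summarized and normalized is not given in the sources used here. The submitters' processing notes name build mm9.

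Of 35512 probe sets, 21789 carry 1 gene symbol, 1621 several and 12102 have no listed gene. Only the first kind was used, with symbols updated through gene ID for 21698. The brightest probe set of a gene was taken (999 genes had more than 1), which left 19938 genes. Intensities became log2 after adding 1 and were quantile normalized over all probe sets. Array medians before that were 7.88 and 8.06 at day 15 and 7.87 and 7.99 at day 0. No detection call was used, and the number of arrays limits the precision. Differences are day 15 minus day 0, tested with limma 3.58.1 in R 4.3.3 (group as the only term, all 4 arrays, Benjamini-Hochberg over all genes, threshold 0.05). On simulated data, with 50 of 19938 genes changed at each size, the test recovered 2% of the genes changed by 1 log2, 82% at 2 log2 and 96% at 3 log2. Of its calls there, 4.76% were false. Recovery depends on how many genes change, which is not known for the real arrays. A gene that was not called here may therefore still differ between the days. Figures were drawn with matplotlib 3.10.9.

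The members and gene lists were chosen with earlier results of these data known. Role groups and lists came from textbook function. Named by rule were the 4 members of each role group with the largest difference, any member more than 0.2 log2 higher (there were 0), Fbl, Ncl, Polr1a, Gnl3 and Nob1, the 2 genes with the largest difference in each other list (more had at least 2 been called), and Myc, Mycn, Max, Mxd4, Npm1, Ubtf, Rrn3, Mki67 and Top2a. Other members were given by their difference, and the remaining names were added after their values were seen. Twistnb, Cd3eap and Znrd1 were matched to newer polymerase I subunit names by hand. Other list genes without a single-symbol probe set were not analysed here. Promoter sequences are RefSeq's, of build GRCm38.p6. The alternatives were the deposited scaling, median centring, a pseudocount of 16, an intensity trend with robust hyperparameters, only the brighter genes (mean not below the median), the mean of all probe sets, the replicate number as a block, and leaving out each array.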

Additional observations from a re-analysis of the deposited data

How the results depend on the processing

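Under all 11 alternatives 41 or 42 of the 42 biogenesis factors were lower at day 15, and the median of all genes stayed between -0.03 and 0.04 log2. Of 516 values of 47 named genes, 513 kept their direction. Both counts include alternatives that cannot change a gene's difference: the intensity trend, the replicate block and keeping only the brighter genes. The mean of all probe sets can change it only for a gene with more than 1, so these counts overstate the stability. The reversed values were Max, at -0.04 with day 15 replicate 2 left out and -0.12 with day 0 replicate 1 left out, and Top2a, at 0.16 with day 0 replicate 1 left out. With 1 array left out Max ranged from -0.12 to 0.25 and Top2a from -0.59 to 0.16. The median of the 42 ranged from -0.61 to -0.45 log2 when 1 array was left out, that of the polymerase I group from -0.76 to -0.61, and that of the other ribosome biogenesis genes from -0.36 to -0.13. The count of genes called by limma was 178 to 284 when 1 array was left out (149 to 219 higher, 29 to 65 lower), and the number of called biogenesis factors 0 to 1, with 1 also on the deposited scaling. Leaving out an array makes the other array of that day borrow its spread from the day with a pair. With an intensity trend and robust hyperparameters 1 other small subunit factor and 1 growth regulator (Odc1) were called.

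The replicate number shared by the days is a number only, per the labels. The deviations of same-numbered arrays from their day's mean correlated at 0.40 across genes. With the replicate block 628 genes were called, 440 higher and 188 lower, among them 5 biogenesis factors, 1 rRNA processing nuclease gene (Pop1) and 1 growth regulator (Odc1). Dim values may lie at background, since no measure of signal over background was used.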

Other observations

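Mitochondrial ribosomal proteins, whose ribosomes are made in mitochondria and not in the nucleolus, had a median difference of -0.11 log2 over 77 genes. By limma 0 were called, and 6 (7.79%) were lower and 0 higher at an unadjusted p below 0.05. Of all genes 4.78% were lower at that threshold, and 8.01% of those at or above the median level. The mean difference was below 0 for 59 of the 77 (76.6%), against 46.8% and 51.2%. Both day 15 arrays lay below both day 0 arrays for 28 (36.4%), against 17.8% and 23.5%. Within replicate 1, 39 of the 77 were lower, and within replicate 2, 69. Mrps18b was at 11.24 and 11.30 at day 15 and at 11.85 and 12.11 at day 0 (limma adjusted p = 0.175). Mrpl52 was at 11.05 and 10.997 at day 15 and at 11.34 and 11.90 at day 0 (limma adjusted p = 0.381).

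Stalled ribosome assembly is known to stabilise p53, so p53 targets and regulators were read as 1 list of 10 measured genes. Their median was 0.03 log2, 0 were called by limma, and at an unadjusted p below 0.05 there were 2 lower and 1 higher. Aen, a nuclease gene induced by p53, was at 9.74 and 9.54 at day 15 and at 10.44 and 10.65 at day 0 (limma adjusted p = 0.0974). Sesn2, a stress gene that restrains mTOR signaling, was at 10.56 and 10.97 at day 15 and at 10.07 and 9.87 at day 0 (limma adjusted p = 0.19).

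Znhit6, an assembly factor of box C/D snoRNPs picked out after its values were seen, was at 11.15 and 10.89 at day 15 and at 10.69 and 10.55 at day 0, one of 3 among the 147 other biogenesis genes with both day 15 arrays above both day 0 arrays. It differed by 0.40 ± 0.18 log2 (SE), which limma did not call (adjusted p = 0.487).

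Among the 36 biogenesis factors with a promoter window, the 10 with an E-box had a median difference of -0.58 log2 (-1.66 to -0.35) and the 26 without one -0.51 log2 (-1.25 to -0.19). The ranges overlap, and no test was made of them.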
